A study of Mus musculus with 2 samples.

Results

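Cell cycle genes were followed in immune cells sorted from mouse pancreatic islets, with the macrophages as the main population. The set held 39 genes, chosen by symbol from a list, and all 39 were found among the 31053 genes of both libraries. They were ordered by role into 15 genes of DNA replication (S members), 3 histones, 18 genes of chromosome segregation and cell division (G2/M members) and 3 cytoskeleton genes. Macrophages with several S or G2/M members at once were a small minority, and they were more frequent in the library labelled 1 week (44 of 1006 cells) than in the library labelled 12 weeks (10 of 1450 cells).

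The series holds 2 single-cell RNA libraries, and both came from C57BL/6J males on a chow diet. Islets of 6 to 8 mice were pooled for a library, so the animals of a pool cannot be told apart. Living CD45+ cells without the epithelial protein Epcam were collected by flow cytometry and loaded on the 10x Genomics 3′ v3 system. The labels give a time of 1 week for one library and 12 weeks for the other, without saying what the weeks count. The titles call the libraries replicates of each other, and the submitters deposited them under different experiment numbers. Each time label therefore rests on 1 library, time and experiment cannot be told apart, and no test between the labels was possible.

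A dividing cell first copies its DNA in S phase and then separates the copies in mitosis after G2. E2F transcription factors drive many replication genes, and a complex that binds the CHR element (cell cycle homology region) drives many mitotic genes. Replication-dependent histone transcripts are made in S phase and mostly lack a poly(A) tail, so 3′ methods that capture poly(A) record them incompletely. Tissue macrophages, those of the islet among them, can renew themselves by local division, with signals through the receptor Csf1r among the main stimuli.

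The files held 1551 barcodes and 12858754 UMIs (unique molecular identifiers, each standing for 1 counted RNA molecule) at 1 week, and 1867 barcodes and 12448628 UMIs at 12 weeks. After filtering, 1339 and 1745 cells were kept, with a median of 7396 and 6830 UMIs. The libraries shared 3 barcodes. Macrophages were the cells whose C1qa, C1qb and C1qc UMIs (subunits of the complement protein C1q) summed to 5 or more, 1242 at 1 week and 1614 at 12 weeks. Their 9 macrophage markers summed to 39720 and 42200 CPM (UMIs scaled to the same total in each library), against 82.4 and 8.78 CPM for 10 B cell markers. The 7 endocrine markers, mostly hormones, summed to 19730 CPM in macrophages at 1 week and 5780 CPM at 12 weeks, a difference between the libraries whose part in the results was not tested. Among macrophages of at least 4000 UMIs, 6 at 1 week and 1 at 12 weeks lay in an endocrine-like cluster, at 619000 and 653600 CPM. Such cells of the macrophage-like clusters stood at 1159 to 6545 CPM at 1 week and 466 to 2758 CPM at 12 weeks.

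To compare cells at equal depth, each macrophage was thinned at random to 4000 UMIs, which left out 236 shallower cells at 1 week and 164 at 12 weeks. A cell with at least 5 of the 15 S members was called S-high, and a cell with at least 5 of 17 G2/M members (all but Hmgb2, which many resting cells express) was called G2/M-high. S-high cells numbered 39 of 1006 at 1 week (3.88%, exact 95% binomial interval 2.77 to 5.26%) and 8 of 1450 at 12 weeks (0.552%, 0.239 to 1.08%). G2/M-high cells numbered 15 at 1 week (1.49%, 0.837 to 2.45%) and 6 at 12 weeks (0.414%, 0.152 to 0.899%). The 1-week share was 7.03 times the 12-week share for S-high cells (interval 3.24 to 17.4) and 3.60 times for G2/M-high cells (1.32 to 11.3). Cells with either call made up 4.37% (3.20 to 5.83%) and 0.690% (0.331 to 1.27%), a ratio of 6.34 (3.15 to 14.1). These intervals cover counting error only, not the spread between animals or preparations.

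**Figure D1:**
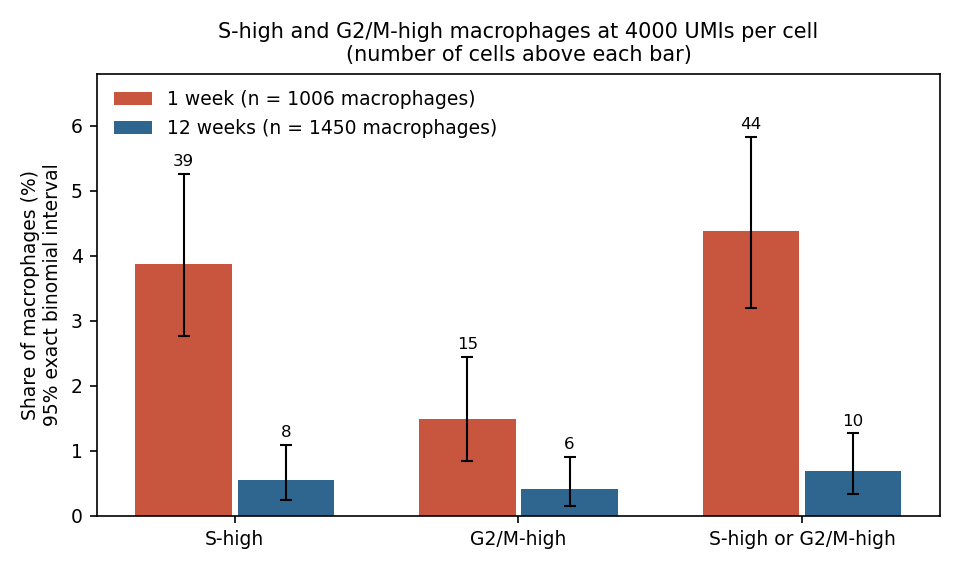
Share of macrophages (vertical axis, percent) that were S-high, G2/M-high or either at 4000 UMIs per cell, by library; bars give the share, lines the exact 95% binomial interval and numbers the cells. The 1-week bars stand above the 12-week bars in all 3 comparisons, and the intervals of S-high cells (2.77 to 5.26% against 0.239 to 1.08%) do not overlap.

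Both calls cut a continuous count of detected genes, so they mark a range and not a cell type. At 1 week 849 cells (84.4%) had 0 or 1 S member, 14 cells lay 1 gene below the threshold, 7 lay on it, and the highest cell had 14 of 15. At 12 weeks 1330 cells (91.7%) had 0 or 1 S member, 2 lay just below the threshold, 3 on it, and the highest had 9. For G2/M members, 11 and 3 cells lay 1 gene below the threshold in the 2 libraries, 4 and 1 on it, and the highest cells had 8 and 12. Over 20 random draws of the thinning, S-high cells ranged from 33 to 44 at 1 week and from 5 to 8 at 12 weeks, and G2/M-high cells from 13 to 19 and from 5 to 9. Without thinning, which favours deeper cells, 7.25% of macrophages at 1 week and 0.867% at 12 weeks had either call. Endocrine cells, which should rarely divide, gave 0 calls in 23 cells at 1 week and 0 in 7 at 12 weeks at the same total of UMIs. With so few of them, the exact upper limits were 14.8% and 41.0%, above the macrophage shares. The median depth of endocrine cells before thinning was 23490 and 13790 UMIs, against 7403 and 6890 for macrophages. The 7 endocrine markers, however, took up 663100 and 445900 CPM in endocrine cells, against 19730 and 5780 CPM in macrophages. The same total of UMIs therefore left endocrine cells fewer UMIs for cell cycle genes. For this reason too, the 0 endocrine calls set no background for the macrophage calls.

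**Figure D2:**
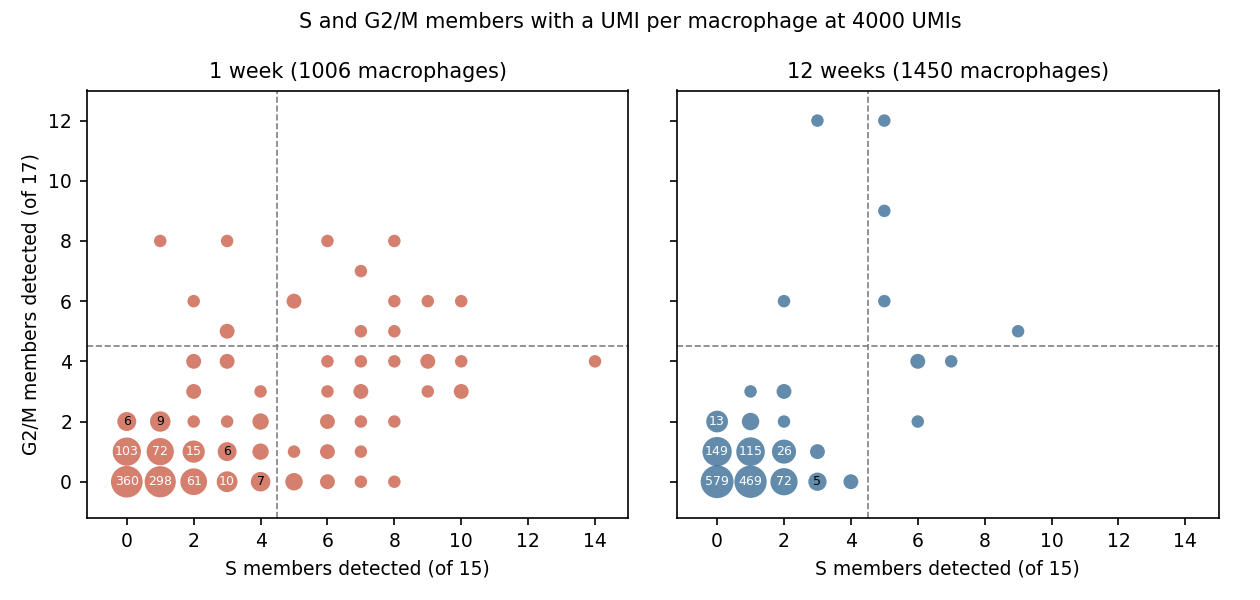
Number of S members (horizontal, of 15) and G2/M members (vertical, of 17) with a UMI in each macrophage at 4000 UMIs; point area grows with the logarithm of the number of cells, printed where it is 5 or more, and dashed lines mark the threshold of 5 genes. Most cells sit at 0 or 1 of each, and the cells beyond the dashed lines are more numerous at 1 week.

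S-high without G2/M-high cells numbered 29 at 1 week and 4 at 12 weeks, both calls together 10 and 4, and G2/M-high alone 5 and 2. Within the called cells of both libraries, which the members themselves selected, the genes had distinct profiles. Dut, which removes dUTP from the nucleotide pool, stood at 341 CPM in the 33 cells that were S-high only, 266 CPM in the 14 cells with both calls and 59.6 CPM in the 7 that were G2/M-high only. Mcm6, a subunit of the replicative helicase, stood at 138, 115.5 and 11.9 CPM. Cdc20, an activator of the anaphase-promoting complex, ran the other way, listed at 0 UMIs in S-high only cells and at 28.9 and 155 CPM in the others. Ube2c, the ubiquitin-conjugating enzyme of the same complex, stood at 11.3, 202 and 310 CPM, and Cenpe, a kinetochore motor, at 5.63, 104 and 203 CPM. Pclaf, a partner of the replication clamp PCNA, was highest in cells with both calls, at 699 CPM, against 405.5 CPM in S-high only cells. Not all G2/M members rose toward the G2/M-high only cells. Spc24, a kinetochore subunit, stood at 115.5, 191 and 155 CPM. Cdk1 stood at 81.7, 144 and 11.9 CPM and Aurkb at 16.9, 57.8 and 11.9 CPM, lowest in G2/M-high only cells. The groups with both calls and with G2/M-high only are small. In the 7 G2/M-high only cells Cdc20 rests on 13 UMIs and Cdk1 and Aurkb on 1 UMI each. The values are descriptions of the cells that the calls selected.

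The time labels were next compared gene by gene over the sums of all macrophages, 11403135 UMIs at 1 week and 11387504 at 12 weeks. Of the 35 members with at least 50 UMIs over both libraries, 23 were at least 1.5-fold lower at 12 weeks and 1 was at least 1.5-fold higher. Among all 9422 genes with as many UMIs, 9.59% were as much lower and 6.45% as much higher. The members' median log2 ratio of 12 weeks over 1 week was -1.16, against -0.07 for all genes. With 1 library per label no test was possible. Without cluster c0, a group of mostly shallow cells that held 214 macrophages at 1 week and 20 at 12 weeks, 11 of 29 members were lower, beside 5.97% of all genes, 3 were higher, beside 6.93%, and the members' median was -0.46. Without S-high and G2/M-high cells, 15 of 25 members were lower, beside 7.79% of all genes, and 1 was higher, beside 6.42%.

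**Figure D3:**
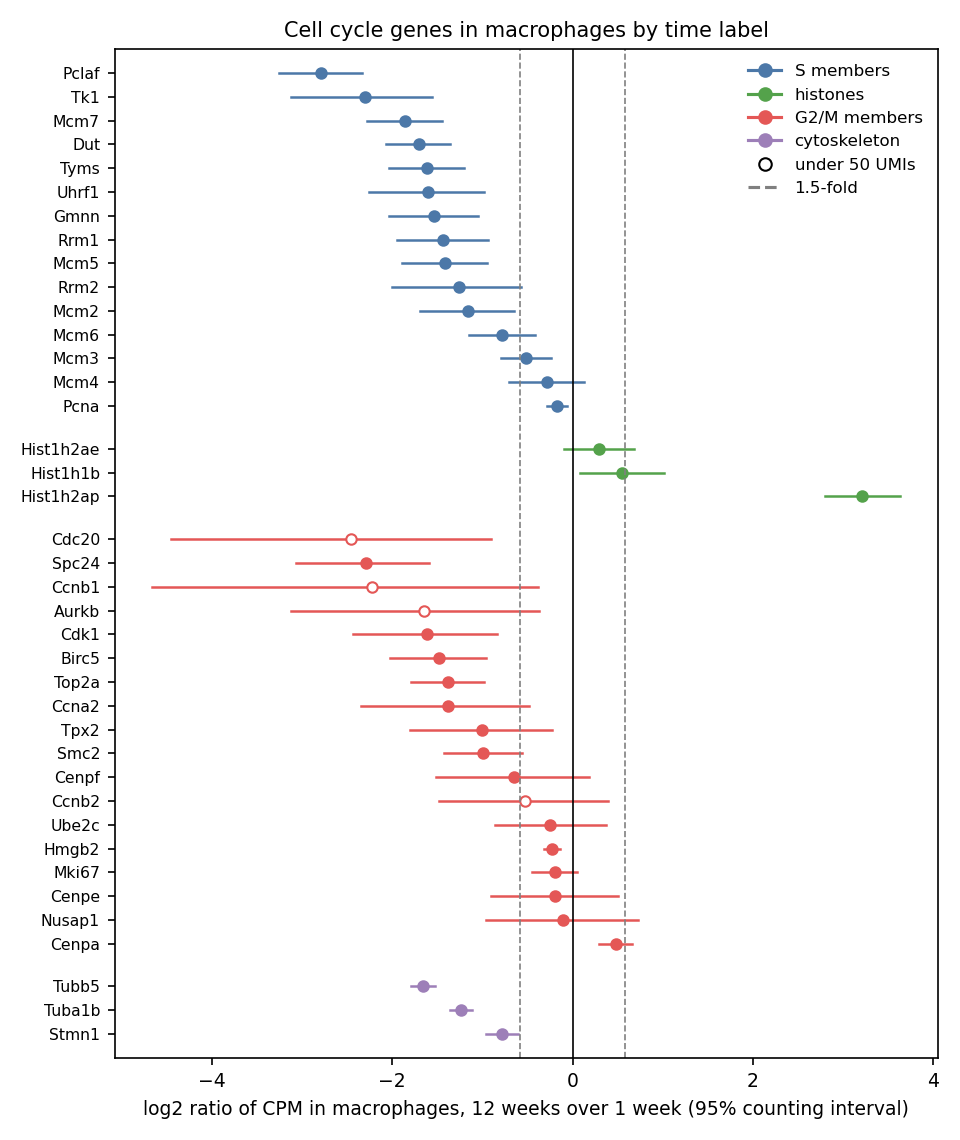
Log2 ratio of the CPM in macrophages, 12 weeks over 1 week (horizontal), for each of the 39 members grouped by role; points are ratios, lines 95% counting intervals, open points members with under 50 UMIs, and dashed lines 1.5-fold. Pclaf lies farthest left among S members (-2.78), Hist1h2ap farthest right (3.20), and the 3 cytoskeleton members are all below 0.

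Of the 15 S members, 12 were at least 1.5-fold lower at 12 weeks, with a median 1-week level 2.70 times the 12-week level. Pclaf gave 324 UMIs at 1 week (28.4 CPM, exact Poisson interval 25.4 to 31.7) and 47 at 12 weeks (4.13 CPM, 3.03 to 5.49), a 6.88-fold difference (5.06 to 9.56). Tk1, the thymidine kinase that salvages thymidine, stood at 7.81 CPM and 1.58 CPM, a 4.94-fold difference (2.95 to 8.71). Tyms, which makes thymidylate, stood at 17.5 and 5.71 CPM (3.06-fold, 2.30 to 4.11), and Dut at 24.6 and 7.55 CPM (3.26-fold, 2.55 to 4.20). The levels at 1 week were higher for each of these nucleotide enzymes, with counting intervals that do not overlap. These intervals treat each UMI as independent, but many UMIs came from the same few cells of 1 library. Among macrophages of at least 4000 UMIs at 1 week, 44 called cells held 57.5% of Tk1, 58.85% of Tyms and 55.7% of Dut UMIs. The intervals therefore do not measure the spread between cells, animals or libraries. The differences were smaller without cluster c0, with log2 ratios of 12 weeks over 1 week of -1.37 for Pclaf, -1.59 for Tk1, -0.73 for Tyms and -0.64 for Dut, against -2.78, -2.30, -1.61 and -1.71 with all macrophages.

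Rrm1, the large subunit of ribonucleotide reductase, stood at 11.1 CPM at 1 week and 4.13 CPM at 12 weeks, and Rrm2, its regulatory subunit, at 5.26 and 2.20 CPM. Rrm2 was not lower at 12 weeks once cluster c0 was left out (log2 ratio 0.49). The 6 subunits of the MCM helicase did not differ alike. Mcm7 differed most, at 20.4 and 5.62 CPM (3.62-fold, 2.73 to 4.85), followed by Mcm5 (12.4 and 4.65 CPM) and Mcm2 (9.03 and 4.04 CPM). Mcm6 stood at 15.3 and 8.87 CPM (1.72-fold, 1.34 to 2.22). Mcm3, at 23.9 and 16.8 CPM (1.43-fold, 1.18 to 1.73), and Mcm4, at 9.73 and 7.99 CPM (1.22-fold, 0.915 to 1.63), stayed within 1.5-fold. Gmnn, the inhibitor of replication licensing, stood at 12.2 and 4.22 CPM, and Uhrf1, which copies DNA methylation patterns to new strands, at 7.72 and 2.55 CPM. Without cluster c0, Gmnn (log2 ratio -0.51), Mcm2 (-0.41), Mcm5 (-0.48) and Mcm6 (-0.20) came within 1.5-fold, while Mcm7 (-1.11), Rrm1 (-0.85) and Uhrf1 (-0.61) stayed beyond it.

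Pcna, the sliding clamp of replication, differed from the other S members in being widespread. It gave 1435 UMIs at 1 week and 1273 at 12 weeks, 126 and 112 CPM (1.13-fold, 1.04 to 1.22). At 4000 UMIs it was detected in 37.4% and 34.8% of macrophages (54.6% and 48.0% without thinning), against 1 of 23 and 1 of 7 endocrine cells. Endocrine markers took up much of the UMIs of endocrine cells, so these detections are not an equal comparison. Called cells held 13.4% of Pcna UMIs at 1 week and 2.51% at 12 weeks. Rrm2 was at the other end, with 91.2% and 83.3% of its UMIs in called cells, and Pclaf had 81.0% and 83.0%. Over the whole list, called cells were 4.37% and 0.690% of the cells and held 36.3% and 12.8% of the S UMIs. The calls were made from these same members, so an excess share in called cells was fixed by the rule. It is no separate result.

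The bases upstream of member genes are shown because S and G2/M members differed in the sequence elements they hold. RefSeq windows of 300 bases, reaching from 250 bases before a gene's start to 50 after it (GRCm38.p6), matched 29 of the 39 members and 27025 genes in all. An E2F element (TTTCCCGC, TTTCGCGC, TTTGCCGC or TTTGGCGC, on either strand) was found in 6 of 13 S members and 1 of 14 G2/M members, and in 2.61% of all genes. A CHR element (TTTGAA or TTCGAA, on either strand) was found in 2 of 13 S members and 10 of 14 G2/M members, and in 21.7% of all genes. The shorter CCAAT box was found in 10 of 13 and 12 of 14, and in 41.1% of all genes. Shown are the 2 S members and the 2 G2/M members with the largest 1-week over 12-week ratios among those whose E2F or CHR match, respectively, lies in a stretch outside the annotated gene. They were chosen after their values were seen, and are read 5′ to 3′ toward the start. Capitals mark the E2F, CHR and CCAAT matches, some of which overlap.
Mcm5, chr8:75109259-75109508, plus strand: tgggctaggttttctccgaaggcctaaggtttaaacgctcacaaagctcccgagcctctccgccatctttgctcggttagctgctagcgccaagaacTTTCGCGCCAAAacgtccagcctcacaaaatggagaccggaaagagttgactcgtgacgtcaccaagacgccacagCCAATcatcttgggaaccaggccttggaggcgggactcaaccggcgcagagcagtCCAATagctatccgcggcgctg
Mcm6, chr1:128359706-128359955, minus strand: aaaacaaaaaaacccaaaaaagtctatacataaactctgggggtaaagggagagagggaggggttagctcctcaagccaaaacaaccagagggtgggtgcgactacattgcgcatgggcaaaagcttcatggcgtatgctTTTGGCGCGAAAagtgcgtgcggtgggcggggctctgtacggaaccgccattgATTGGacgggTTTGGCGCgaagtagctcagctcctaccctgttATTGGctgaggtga
Cdk1, chr10:69352939-69353162, minus strand: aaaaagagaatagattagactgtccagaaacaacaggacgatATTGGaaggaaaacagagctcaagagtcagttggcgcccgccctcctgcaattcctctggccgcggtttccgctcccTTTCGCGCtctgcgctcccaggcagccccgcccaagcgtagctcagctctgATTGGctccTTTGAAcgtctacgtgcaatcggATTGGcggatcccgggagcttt
Top2a, chr11:99024190-99024439, minus strand: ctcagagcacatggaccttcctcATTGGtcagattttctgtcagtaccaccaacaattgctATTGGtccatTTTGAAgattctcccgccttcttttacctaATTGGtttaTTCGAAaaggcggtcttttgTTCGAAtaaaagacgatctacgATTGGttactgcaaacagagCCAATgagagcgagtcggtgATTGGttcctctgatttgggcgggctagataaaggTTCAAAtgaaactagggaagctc
In Mcm5 the letters TTTCGCGC, 153 bases before the RefSeq start, overlap a match on the opposite strand, and Mcm6 holds the same kind of overlap around TTTGGCGC at 110 bases. Cdk1 holds an E2F match at 131 bases and a CHR match at 71 bases between 2 CCAAT boxes. Top2a holds 4 CHR matches and 6 CCAAT boxes in 250 bases. A match is a description of the letters; binding was not measured, and Tk1 and Birc5, which also differed between the libraries, had none of these letters in their windows.

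Of the 18 G2/M members, 14 had enough UMIs, and 8 of these were at least 1.5-fold lower at 12 weeks. Top2a, the topoisomerase that untangles chromosomes, gave 188 UMIs at 1 week (16.5 CPM, 14.2 to 19.0) and 72 at 12 weeks (6.32 CPM, 4.95 to 7.96), a 2.61-fold difference (1.98 to 3.47). Cdk1, the kinase that drives entry into mitosis, stood at 5.09 and 1.67 CPM (3.05-fold, 1.79 to 5.42), and its partner Ccna2 at 3.42 and 1.32 CPM (2.60-fold, 1.40 to 5.07). Spc24 stood at 8.59 and 1.76 CPM (4.89-fold, 3.003 to 8.36). All 4 were higher at 1 week.

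Birc5, a subunit of the chromosomal passenger complex, stood at 10.3 CPM at 1 week and 3.69 CPM at 12 weeks (2.78-fold, 1.94 to 4.06). The condensin subunit Smc2 stood at 11.8 and 5.97 CPM, and the spindle assembly factor Tpx2 at 3.86 and 1.93 CPM. Cenpf, a kinetochore protein, stood at 2.89 and 1.84 CPM, with an interval of the ratio (0.881 to 2.85) that includes 1. Ccnb1, Ccnb2, Cdc20 and Aurkb had too few UMIs to be counted. They gave 14, 26, 22 and 22 UMIs at 1 week and 3, 18, 4 and 7 at 12 weeks. Without cluster c0 the log2 ratios of 12 weeks over 1 week were -1.44 for Spc24, -1.02 for Top2a, -0.89 for Birc5, -0.84 for Tpx2 and -0.60 for Ccna2, and those of Cdk1 (-0.50), Smc2 (-0.46) and Cenpf (0.35) were within 1.5-fold.

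Mki67, Cenpa and Hmgb2 did not follow this pattern. Mki67, the proliferation marker that coats mitotic chromosomes, gave 294 UMIs at 1 week (25.8 CPM, 22.9 to 28.9) and 256 at 12 weeks (22.5 CPM, 19.8 to 25.4), a ratio of 1.15 (0.967 to 1.36). Cenpa, the histone H3 variant of centromeres, stood at 36.8 CPM at 1 week and 51.3 CPM at 12 weeks, 1.39-fold higher at 12 weeks (1.23 to 1.58). Hmgb2, a chromatin protein, stood at 210 and 179 CPM (1.17-fold, 1.10 to 1.24). The Ube2c, Cenpe and Nusap1 ratios of 1.18, 1.15 and 1.08 all had intervals that include 1.

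Most Mki67 UMIs lay outside the called cells, which held 21.4% of them at 1 week and 21.6% at 12 weeks, against 67.3% and 73.2% for Top2a. Both genes were among the members that made the calls, which favours high shares in called cells. At 4000 UMIs, 7.85% and 4.69% of macrophages had a Mki67 UMI (11.7% and 7.001% without thinning), and 0 of 23 and 0 of 7 endocrine cells, whose exact upper limits of 14.8% and 41.0% lie above these shares. Top2a was detected in 19 of the 79 Mki67-positive macrophages at 1 week and in 7 of 68 at 12 weeks. Conversely, 19 of 34 Top2a-positive cells at 1 week and 7 of 16 at 12 weeks had a Mki67 UMI. Cenpa was more widespread still, in 12.6% and 15.3% of macrophages (20.9% and 23.7% without thinning) and in 0 of 23 and 0 of 7 endocrine cells, whose upper limits (14.8% and 41.0%) do not separate the Cenpa shares from background either. Called cells held 6.33% and 4.73% of its UMIs. Top2a was detected in 5 of 127 Cenpa-positive macrophages at 1 week (3.94%) and in 8 of 222 at 12 weeks (3.60%). Among macrophages without a Cenpa UMI it was detected in 29 of 879 (3.30%) and 8 of 1228 (0.651%).

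With all macrophages, the 3 cytoskeleton members were each at least 1.5-fold lower at 12 weeks. Tubb5, a beta tubulin, gave 1938 UMIs at 1 week (170.0 CPM, 162.5 to 178) and 612 at 12 weeks (53.7 CPM, 49.6 to 58.2), a 3.16-fold difference (2.89 to 3.47). Tuba1b, an alpha tubulin, stood at 161 and 68.7 CPM (2.35-fold, 2.16 to 2.56), and Stmn1, which destabilises microtubules, at 62.7 and 36.4 CPM (1.72-fold, 1.52 to 1.95). The tubulins were not confined to called cells, which held 45.1% of Tubb5 UMIs at 1 week and 21.5% at 12 weeks. Outside called cells, among macrophages of at least 4000 UMIs, Tubb5 stood at 96.4 and 43.0 CPM (2.24-fold, 2.01 to 2.51) and Tuba1b at 102.5 and 55.9 CPM (1.83-fold, 1.66 to 2.03), while Stmn1, at 28.4 and 21.1 CPM (1.35-fold, 1.13 to 1.61), was within 1.5-fold. Without cluster c0, Stmn1 (log2 ratio of 12 weeks over 1 week -0.35) and Tuba1b (-0.56) were within 1.5-fold and Tubb5 stood at -0.84. Tubulin genes have close copies, and reads shared between copies may have been lost in the authors' counting.

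Of the 3 histones, 1 was at least 1.5-fold higher at 12 weeks and 0 were lower. Hist1h2ap, an H2A gene at chr13:21833026-21833507 (GRCm38, minus strand), gave 55 UMIs at 1 week (4.82 CPM, 3.63 to 6.28) and 506 at 12 weeks (44.4 CPM, 40.7 to 48.5). It was 9.21-fold higher at 12 weeks (6.97 to 12.4), the opposite direction to the 23 members that were lower. Hist1h1b, a linker histone, stood at 5.96 and 8.69 CPM (1.46-fold higher at 12 weeks, 1.06 to 2.02), and passed 1.5-fold when the libraries were scaled by TMM factors. Hist1h2ae stood at 9.03 and 11.1 CPM (1.23-fold, 0.937 to 1.61). Without cluster c0 the log2 ratios of 12 weeks over 1 week were 4.73 for Hist1h2ap, 1.42 for Hist1h1b and 1.31 for Hist1h2ae. H2A genes are near-identical copies in a cluster, so the split of reads between them is uncertain.

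Hist1h2ap was detected at 4000 UMIs in 14 macrophages at 1 week and in 75 at 12 weeks (1.39% and 5.17%; 2.17% and 8.06% without thinning). Endocrine cells gave 1 of 23 at 1 week (exact interval 0.110 to 21.9%) and 1 of 7 at 12 weeks (0.361 to 57.9%), so the macrophage shares cannot be told apart from background at this number of endocrine cells. At 1 week 8 of the 14 also held a Pclaf UMI, and at 12 weeks 7 of the 75. Called cells still held most of its UMIs, 78% and 69.7%, with 81.6 CPM in the 44 called cells at 1 week and 2599 CPM in the 10 at 12 weeks. Outside called cells it stood at 1.07 CPM at 1 week and 14.1 CPM at 12 weeks. A higher 12-week level was also measured outside macrophages. The 25 endocrine cells at 1 week gave 2 UMIs (2.88 CPM) and the 7 at 12 weeks 8 UMIs (46.9 CPM).

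The called macrophages were then compared with the others by measures the calls did not use. Their C1q transcripts were not lower, at 13910 CPM at 1 week against 9676 CPM in the other macrophages, and 10200 against 8919 CPM at 12 weeks. Before thinning they held a median of 11510 and 14390 UMIs, against 8252 and 7144. Endocrine transcripts summed to less in called cells, at 952 against 21570 CPM at 1 week and 663 against 5910 CPM at 12 weeks. The sums of the other macrophages include the 6 and 1 cells of the endocrine-like cluster, at 619000 and 653600 CPM. At 1 week 34 of the 44 called cells lay in cluster c0, which itself stood at 1159 CPM of endocrine transcripts. Called against other macrophages at 1 week is therefore also largely c0 against other clusters, here and in the gene comparisons that follow. Cells with at least 3 endocrine UMIs were 93.2% of called and 89.3% of other macrophages at 1 week. At 12 weeks they were 90.0% and 88.1%. At 12 weeks 2 of the 10 called cells lay in the B-like cluster and held at least 3 UMIs of B cell markers as well as C1q; whether they are doublets was not tested. Without cells of clusters named for other classes, 8 called cells (7 S-high, 4 G2/M-high) were left at 12 weeks and 44 at 1 week.

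Further cell cycle genes that had no part in the calls were compared between called and other macrophages of at least 4000 UMIs, with the libraries summed. Of all 9295 genes with at least 50 UMIs over both groups, 20.5% were at least 2-fold higher in called cells and 12.7% at least 2-fold lower. Of 23 other S genes, 17 had as many UMIs, 16 were at least 2-fold higher and 0 as much lower. The histone chaperone Asf1b stood at 62.1 CPM in called cells and 0.854 CPM in the rest, Ccne2 (cyclin E2) at 49.0 and 0.901 CPM, and the checkpoint mediator Clspn at 39.2 and 0.948 CPM. Of 33 other G2/M genes, 14 had enough UMIs, 12 were at least 2-fold higher and 0 as much lower. The spindle motor Kif11 stood at 58.8 CPM against 0.285 CPM, the mitotic kinase Pbk at 57.2 against 0.379 CPM, Cdca3 at 65.4 against 0.616 CPM, and the midzone protein Prc1 at 113 against 1.23 CPM. The named genes have the highest ratios among those with at least 20 UMIs in called cells. Ccne2, Clspn, Kif11 and Pbk had fewer than 50 UMIs over both groups, so they are not among the genes counted above. Their levels in the other macrophages rest on 19, 20, 6 and 8 UMIs. The libraries contribute unequally, with 44 of the 54 called cells from 1 week and 1440 of the 2402 others from 12 weeks, and the values describe the called cells without a test.

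Among 20 genes of G1 control and inhibitors, 19 had enough UMIs, 9 were at least 2-fold higher in called cells and 1 was as much lower. The CDK4/6 inhibitors Cdkn2c and Cdkn2d stood at 37.6 against 2.32 CPM and 49.0 against 6.35 CPM. Ccnd1 (cyclin D1) stood at 180 against 38.8 CPM and Ccnd3 (cyclin D3) at 32.7 against 7.11 CPM. Ccnd1 differed by library, with 220 against 42.6 CPM at 1 week and 37.2 against 35.2 CPM in the 10 called cells at 12 weeks. Cdkn1a, the p53-induced CDK inhibitor p21, was lower in called cells, at 255 against 583 CPM (ratio 0.437, 0.371 to 0.512), in both libraries (199 against 468 CPM and 454 against 694 CPM). Btg1, an antiproliferative gene, was close to 2-fold lower, at 354.5 against 701 CPM (ratio 0.505, 0.440 to 0.578). Of 7 growth receptors and brakes, 7 had enough UMIs, 0 were at least 2-fold higher and 1 was as much lower, Csf2rb, a subunit of cytokine receptors (45.7 against 108 CPM, ratio 0.422, 0.280 to 0.612). Csf2rb was lower in called cells at 1 week only, with 29.3 against 111 CPM there and 104 against 106 CPM at 12 weeks. Btg1 and Csf2rb were named after their values were seen. Ratios of called over other macrophages were 1.96 for the transcription factor Klf2, 0.683 for Csf1r, the receptor of the macrophage growth factor CSF1, and 0.617 for Csf2ra. The Klf2 difference lay in 1 library, with 27.2 against 26.7 CPM at 1 week and 89.4 against 15.3 CPM at 12 weeks. The 12-week value rests on 12 UMIs in 10 called cells, 2 of them in the B-like cluster. B-like cells themselves stood at 253 and 245 CPM of Klf2.

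The same lists between the labels gave the other genes' differences. Beside the 9.59% of all genes that were at least 1.5-fold lower at 12 weeks and the 6.45% that were higher, 13 of 18 other S genes with at least 50 UMIs were lower and 0 higher, and of 15 other G2/M genes 8 were lower and 0 higher. Of 19 G1 genes, 7 were lower (Ccnd1, Ccnd2, Ccnd3, Cdk2, Cdkn2c, Cdkn2d and Rbl1) and 3 higher (Cdkn1a, Cdkn2b and Rb1). Cdkn1a stood at 453 CPM at 1 week and 691 CPM at 12 weeks in macrophages.

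Clustering on variable genes without the cell cycle genes placed most called cells of the 1-week library together. Of the 44 called cells at 1 week, 34 lay in cluster c0 and made up 33.0% of its 103 macrophages of at least 4000 UMIs. At 12 weeks 3 of 10 lay there, among 5 such cells. Cluster c0 held 214 macrophages at 1 week and 20 at 12 weeks before the depth limit. The shares at 4000 UMIs therefore leave out most of this cluster's macrophages. Cluster c0 was led by Yae1d1, Zfp512 and Ccnb1ip1, and its cells had a median of 3692 UMIs. At 12 weeks 4 of the 10 called cells lay in cluster c3 (led by Pltp, Acp5 and Clec4e, with Mki67 itself among its leading genes). Pclaf stood at 221 CPM in c0 at 1 week and 155 CPM at 12 weeks, while in the other 8 macrophage-like clusters it reached at most 42.7 CPM, in cluster c7 (the interferon-induced genes Rsad2 and Ifit1) at 1 week.

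Mki67 was spread differently over the clusters, and several clusters but not all were alike in both libraries. Among macrophages of at least 4000 UMIs that were not called, it stood at 49.7 CPM at 1 week and 47.5 CPM at 12 weeks in cluster c7, and at 31.8 and 76.0 CPM in cluster c3. In cluster c1, led by Cxcl1 and Il10, it stood at 25.7 and 34.5 CPM. It was low in both libraries in cluster c4 (Slc40a1 and Itgb8), at 0 and 3.04 CPM, and in cluster c2 (Rgcc and Hmox1), at 3.69 and 5.71 CPM. It was higher at 1 week in clusters c8 (Rab3il1 and Arl11; 16.2 and 7.20 CPM) and c6 (Cxcl3 and Il12b; 21.8 and 9.79 CPM), and stood at 17.5 and 19.7 CPM in c5. Cenpa had another order, at 64.2 and 101 CPM in c8 and at 70.9 and 70.9 CPM in c4, where Mki67 was low. These are sums over cells of 1 library each, and the clusters were drawn from the same cells, so no test was made.

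**Figure D4:**
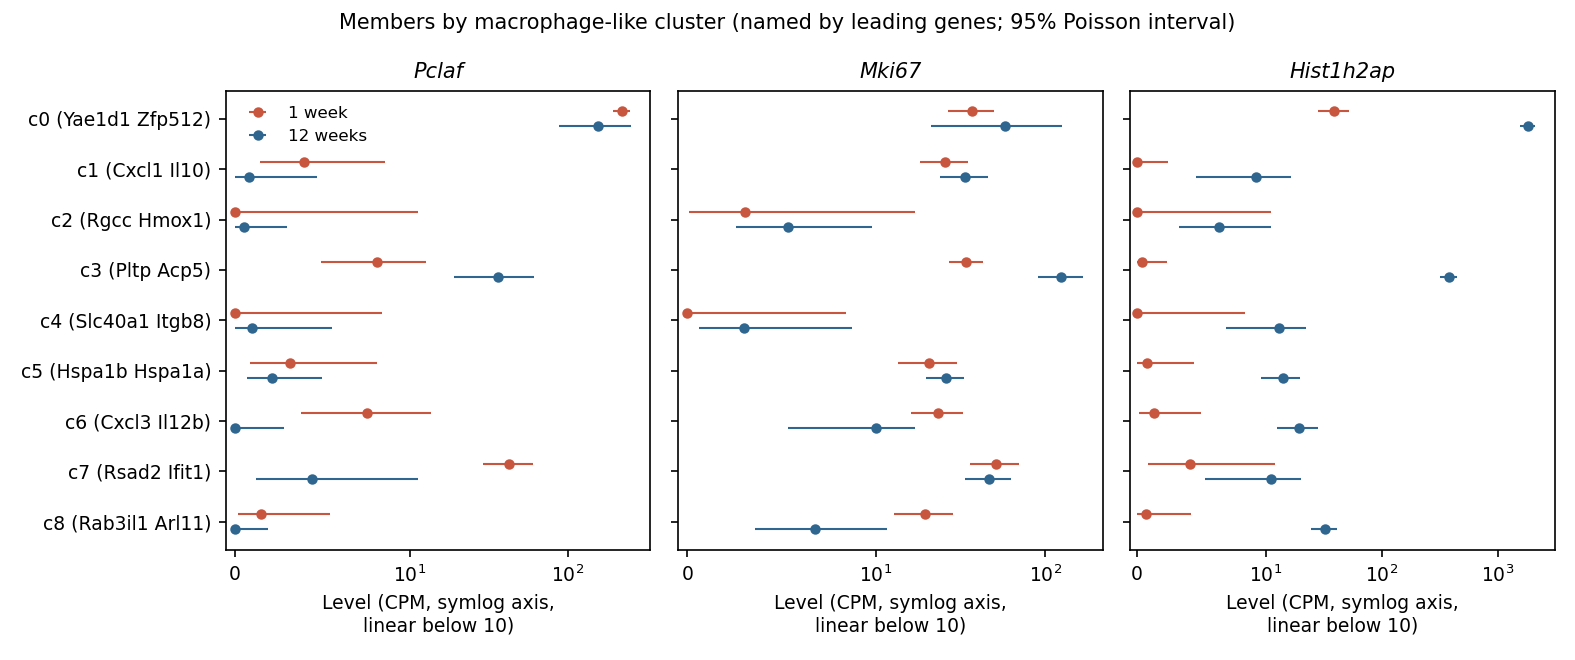
Level (horizontal, CPM, linear below 10 and logarithmic above) of Pclaf, Mki67 and Hist1h2ap in the 9 macrophage-like clusters, named by 2 leading genes, for each library; points are sums over all macrophages of a cluster and lines exact 95% Poisson intervals. Pclaf is highest in c0 in both libraries (221 and 155 CPM), Mki67 is low in c2 and c4 in both, and Hist1h2ap lies to the right at 12 weeks in each cluster.

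The other immune classes with fewer than 5 C1q UMIs were small: 26 and 28 B-like cells, 10 and 40 T-like cells, and 17 and 35 dendritic-like cells at 1 and 12 weeks. At 4000 UMIs, 1 of 18 B-like cells at 1 week was S-high and 0 of 10 at 12 weeks had a call. Of T-like cells, 0 of 2 and 0 of 14 had one. Of dendritic-like cells, 2 of 17 at 1 week (11.8%, 1.46 to 36.4%) and 1 of 31 at 12 weeks (3.23%, 0.0816 to 16.7%) had one. Each of these intervals includes the macrophage share of the same library. At 2000 UMIs 0 cells of the 3 classes were called. Median depths at 1 and 12 weeks were 5540 and 3100 UMIs for B-like, 2912 and 2985 for T-like and 8914 and 7287 for dendritic-like cells.

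Summed over a list, the S members stood at 331 CPM in macrophages at 1 week and 192 CPM at 12 weeks, and between 264 and 364 CPM in the other classes. The G2/M members without Hmgb2 were highest in dendritic-like cells, at 320 and 395 CPM, against 143 and 110.0 CPM in macrophages, 109 and 81.7 CPM in B-like and 132 and 107 CPM in T-like cells. Cenpa alone gave 214 CPM of the dendritic-like level at 12 weeks. Hmgb2 was highest in T-like cells, at 694 and 508 CPM, against 210 and 179 CPM in macrophages.

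**Figure D5:**
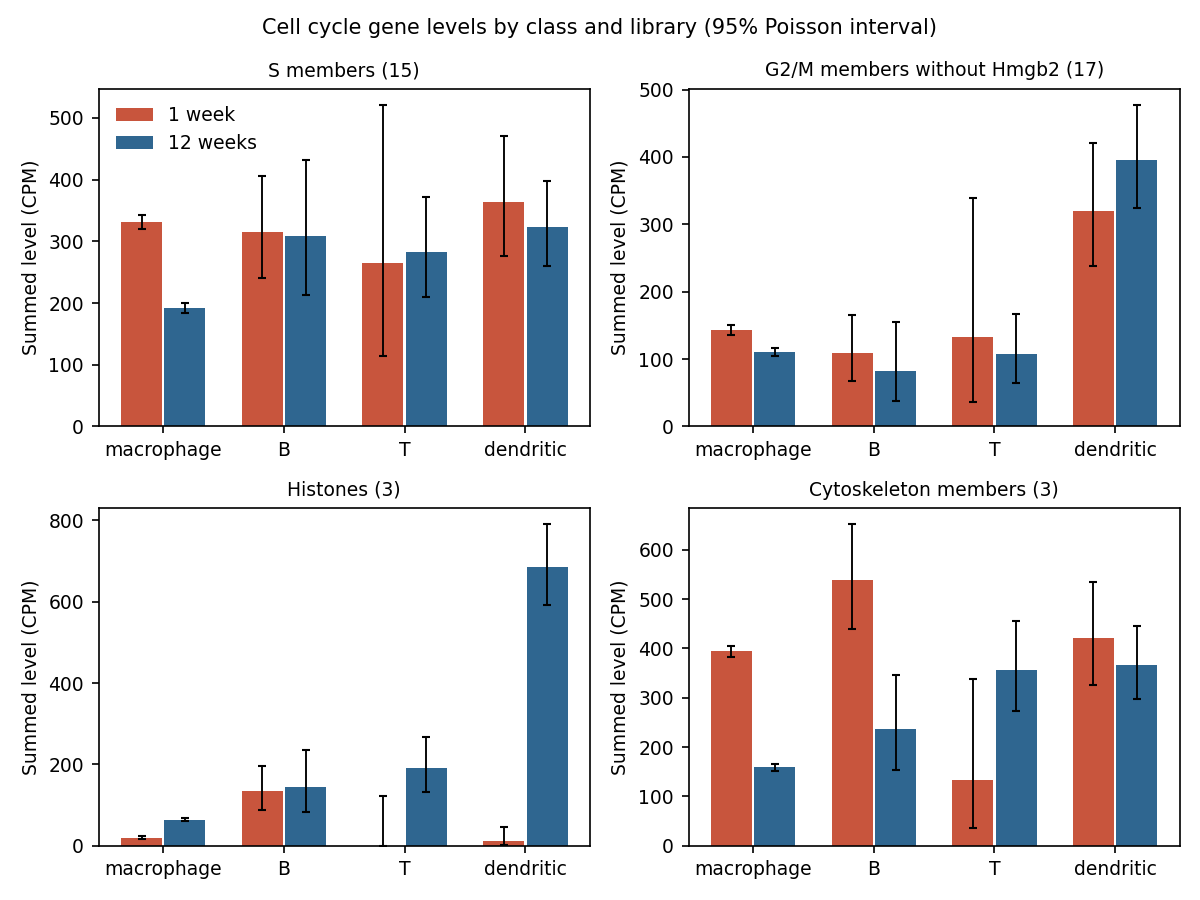
Summed level (vertical, CPM) of the S members, the G2/M members without Hmgb2, the histones and the cytoskeleton members in macrophages and in B-like, T-like and dendritic-like cells with fewer than 5 C1q UMIs, by library; lines are exact 95% Poisson intervals. Dendritic-like cells stand highest for the G2/M members (320 and 395 CPM), and the histone sum of dendritic-like cells at 12 weeks (686 CPM) stands above the other bars.

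Macrophages were tested against the mean of the B-like, T-like and dendritic-like classes with edgeR's quasi-likelihood test on sums per class and library. The model held a term for the library, and p-values were adjusted over 3179 genes by the Benjamini-Hochberg method. Only 9 members passed the filter on low counts. Pcna was higher in macrophages, and Hist1h1b and Hist1h2ap were lower, so 1 of 9 members was higher where 27.9% of all tested genes were, and 2 of 9 lower where 10.1% were. Hist1h1b and Hist1h2ap lay below the filter's level in macrophages and passed it only through other classes, where they were high. The filter thus favoured a lower macrophage level for these 2 histones, and their count is no separate support for one. The members' median log2 difference was -0.23, against 0.09 for all genes. The 2 libraries serve as replicates here and differ in time label. The library term takes up the shift shared by all classes. The p-values therefore measure only how class differences vary between the 2 libraries, with 3 residual degrees of freedom, and not the spread between animals. When cells of the other classes with 5 or more C1q UMIs were kept, 0 of 15 tested members passed with edgeR (3 at an unadjusted p under 0.05).

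Pcna stood at 126 and 112 CPM in macrophages, 67.2 and 72.6 CPM in B-like cells, 33.0 and 95.9 CPM in T-like cells and 100.5 and 58.0 CPM in dendritic-like cells. All 6 other values lie below both macrophage values, and the edgeR log2 difference was 0.92 (SE 0.25, adjusted p = 0.00956). Hist1h2ap stood at 4.82 and 44.4 CPM in macrophages, 46.6 and 127 CPM in B-like cells, 0 and 95.9 CPM in T-like cells, and 6.28 and 544 CPM in dendritic-like cells, so that the groups overlap. Its edgeR log2 difference was -1.82 (SE 0.44, adjusted p = 0.00394), and it was not called with DESeq2 or without the library term. Hist1h1b was at 5.96 and 8.69 CPM in macrophages and from 0 to 105 CPM elsewhere (edgeR log2 difference -2.36, SE 0.68, adjusted p = 0.0126). It was not called with DESeq2 either, and without the 1-week library its log2 difference was 0.46. The 6 other tested members (Stmn1, Cenpa, Hmgb2, Pclaf, Tuba1b and Tubb5) had edgeR log2 differences from -0.60 to 1.94 that did not pass.

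Of the further lists, 2 of 23 other S genes were tested and 0 passed in edgeR, and 4 of 33 other G2/M genes with 1 lower, the condensin subunit Smc4 (28.8 and 26.1 CPM in macrophages, log2 difference -1.05, adjusted p = 0.0175). Of 6 G1 genes tested, Cdk6, a G1 cyclin-dependent kinase (160 and 123 CPM in macrophages, 0 to 62.8 CPM elsewhere), and Cdkn1a (453 and 691 CPM, 9.07 to 452 CPM elsewhere) were higher in macrophages. Ccnd2 (cyclin D2; 59.7 and 38.5 CPM, 109 to 605 CPM elsewhere) and Cdkn1b, the CDK inhibitor p27 (17.01 and 14.8 CPM, 25.9 to 165 CPM elsewhere), were lower. Of 6 growth receptors and brakes tested, 4 were higher, among them the transcription factor Maf and the receptors Csf1r and Csf2ra, and Klf2 was lower. Maf was higher only against the mean of the classes. It stood at 24.5 and 30.3 CPM in macrophages, below T-like cells in both libraries (198 and 62.1 CPM). B-like cells had 0 CPM in both libraries, and dendritic-like cells 6.28 and 14.5 CPM. Csf1r was on the macrophage marker list, so its place is no separate result. Smc4, Cdkn1b and Klf2 lay below the count filter's level in macrophages and passed it only through other classes. Their lower macrophage level was thus favoured by the filter.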

How the data were processed

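Single-cell RNA of CD45+ islet cells was measured in 2 libraries, and 1 pool of 6 to 8 mice gave each. The authors deposited filtered UMI counts per gene and cell, made with Cell Ranger 3.1.0 per the file headers and with build mm10 per the submitters' processing notes. Other steps are not given in the sources used here. The counts were used as deposited, with cells of at least 500 genes and 1000 UMIs and at most 10% mitochondrial UMIs. Scrublet called 1 and 7 doublets, which were removed. Cells were clustered with scanpy 1.11.5 on variable genes that excluded cell cycle genes, and clusters were named by marker genes. Thinning drew 4000 UMIs per cell without replacement, with a fixed seed (numpy 2.4.6). Intervals are exact 95% Poisson or binomial (Clopper-Pearson) intervals from scipy 1.17.1. Those of gene levels and their ratios treat UMIs as independent, although UMIs of the same cell are not replicates. Class sums were tested with edgeR 4.0.16 in R 4.3.3 (TMM, low-count filter, library as block, adjusted p under 0.05), after a test on simulated data; DESeq2 1.42.0 was an alternative. The block is the library, which holds all classes of a pool.

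The 39 members and the other gene lists were chosen with earlier results of these data known. The text accounts for every member, and from the other lists names genes that passed the class test and the 4 with the highest called-over-rest ratio, except for items that are not reported here. Depth, call threshold, gate, cell filter, scaling, low-count limit and model were varied. The analysis without cluster c0, the one without shallow cells, the 20 draws, the values by cluster, the shares of all genes in called cells and the list of all histone genes were added after seeing the data.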

Additional observations from a re-analysis of the deposited data

How the results depend on the processing

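The 1-week share was above the 12-week share in 9 of 9 settings for each call, with ratios from 6.01 to 21.6 for S-high, 1.92 to 5.51 for G2/M-high and 5.31 to 8.56 for either. The settings include the main one and another thinning seed, and the ratio of 21.6 rests on 15 cells against 1. None of them left out cluster c0, which held 34 of the 44 called cells at 1 week and 3 of the 10 at 12 weeks. The ratios therefore rest largely on c0 and do not describe the macrophages outside it. Thinning to 2000 UMIs gave S-high shares of 1.77% at 1 week and 0.126% at 12 weeks, a G2/M-high share of 0.758% at 1 week and 2.11% for either call at 1 week. At 6000 UMIs the 1-week shares were 5.52%, 2.57% and 6.01% (S-high, G2/M-high, either), and the 12-week G2/M-high share was 0.919%. With at least 3 members, the 1-week shares were 7.46%, 3.48% and 8.05%, and 1.24% were S-high and 1.52% had either call at 12 weeks. With at least 8, the 1-week shares were 1.49%, 0.398% and 1.79%, and the 12-week values were 0.0690% and 0.276%. The count of members lower at 12 weeks was 15 of 25 without called cells, beside 7.79% of all genes. It was 13 of 23 when shallow cells were also left out (median log2 ratio -0.77), beside 6.82%. Without cluster c0 it was 11 of 29 (median -0.46), beside 5.97%. The count higher was 2 of 35 with TMM factors, beside 8.18% of all genes. These factors moved the median of all genes from -0.07 to 0.01. Without c0 the count higher was 3 of 29, beside 6.93%, and Rrm2 (0.49) and Cenpf (0.35) changed sign.

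In the class test, 0 of 15 tested members were higher when other-class cells with C1q were kept, beside 388 of 4599 genes. The count lower was 0 of 15 there, beside 167 of 4599. It was 0 of 9 with DESeq2 (1 at an unadjusted p under 0.05), beside 337 of 3179. With no replicate block it was 1 of 9, beside 317 of 3179, and Hist1h2ap was not called. The stricter cell filter left macrophages and dendritic-like cells only and gave 8 of 35, beside 417 of 9728. Counts of 35 and of 9 tested members do not compare directly. The members' median class difference was 0.47 with no filter on low counts and ranged from -0.52 to 1.19 when 1 library was left out, which leaves no residual degrees of freedom. Pclaf stood at -2.24 under the stricter cell filter and Hist1h1b at 0.46 without the 1-week library. Except where the alternative itself leaves cells or genes out, the cause was not tested. The small number of cells limits the other classes, with 10 T-like cells and 30264 UMIs at 1 week.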

Other observations

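The direction of Hist1h2ap was shared by other histone genes, none of which took part in the calls; those named were chosen after their values were seen. Of 67 histone genes in the files, the 3 members included, 19 had at least 50 UMIs in macrophages of both libraries together, 10 were at least 1.5-fold higher at 12 weeks and 0 were as much lower, beside 6.45% and 9.59% of all genes. Hist2h2aa1, an H2A gene, stood at 1.84 CPM at 1 week and 15.2 CPM at 12 weeks (8.25-fold, 5.23 to 13.7). Hist2h2ac, another H2A gene, stood at 2.98 and 10.4 CPM (3.51-fold, 2.38 to 5.29). These are single libraries, and near-identical copies share reads.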
